A study of Mus musculus with 24 samples.

Results

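The genes described here are 8 CC chemokines, Ccl2, Ccl3, Ccl4, Ccl5, Ccl7, Ccl8, Ccl12 and Ccl22, and 1 CC chemokine receptor, Ccr2. They were chosen by name, and their Ensembl identifiers were looked up in GENCODE M21, which gave 1 row each, or 9 of the 55401 gene rows of the count table. Their identifiers are Ccl2 ENSMUSG00000035385, Ccl3 ENSMUSG00000000982, Ccl4 ENSMUSG00000018930, Ccl5 ENSMUSG00000035042, Ccl7 ENSMUSG00000035373, Ccl8 ENSMUSG00000009185, Ccl12 ENSMUSG00000035352, Ccl22 ENSMUSG00000031779 and Ccr2 ENSMUSG00000049103. All 9 passed edgeR's filter on low counts in each of the 17 comparisons made.

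RNA was measured in 24 tumors of TC2Ras cells, a single mouse prostate cancer line made from TRAMP-C2 by adding activated H-Ras, grown in male C57/BL6 mice of 8 to 10 weeks. The 4 subcutaneous tumors each grew from 300000 cells injected into a flank and were taken after 7 days, 2 from mice given an IL-27 plasmid and 2 from mice given an empty control plasmid. The 20 intratibial tumors grew from 100000 TC2Ras-Luc cells, which carry luciferase, injected into the marrow space of the tibia, where host bone, marrow and nearby muscle can enter the sample. Every intratibial mouse received either the IL-27 plasmid or the empty plasmid and either cabozantinib (cabo) at 30 mg/kg or its vehicle polyvinylpyrrolidone (PVP, 15%). The empty plasmid with PVP is called control, the IL-27 plasmid with PVP is called IL-27, the empty plasmid with cabo is called cabo, and the last group is called IL-27+cabo. At day 14 there were 3 tumors a group, and at the end of the study (EOS), when mice had reached the ethical endpoint, there were 2 a group. Each plasmid was given at 10 µg per muscle and driven into the leg muscle by ultrasound, so the controls also carried the injection and sonication. Cabo, an inhibitor of MET, VEGF receptors and other tyrosine kinases, was given daily for 2 weeks, so tumors of the EOS groups were no longer on the drug, and time and the end of dosing cannot be told apart there. The labels do not say whether subcutaneous tumors of 1 group came from separate mice, so p-values for them measure only the spread between these samples. The intratibial libraries carry mouse numbers of their own.

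CC chemokines are small secreted proteins that draw leukocytes along a gradient by binding G protein-coupled receptors. CCR2, carried by inflammatory monocytes, is the receptor that lets them leave the marrow and enter inflamed tissue, and in the mouse its ligands include CCL2, CCL7 and CCL12. CCL3, CCL4 and CCL5 are inflammatory ligands that attract macrophages, T cells and NK cells, mouse CCL8 acts on CCR8, and CCL22, made by dendritic cells and macrophages, acts on CCR4 of regulatory and type 2 helper T cells. In bone, monocytes are also the precursors of osteoclasts.

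The members lie in 4 places of the GRCm38 genome. Ccl2 (chromosome 11, 82035571 to 82037453), Ccl7 (82045712 to 82047525), Ccl12 (82101845 to 82103400) and Ccl8 (82115185 to 82116799) stand in a row on the plus strand. Ccl5 (83525778 to 83530518, minus strand), Ccl3 (83647844 to 83649355, minus strand) and Ccl4 (83662584 to 83664683, plus strand) form a second cluster further along chromosome 11. Ccl22 lies on chromosome 8 from 94745590 to 94751699 and Ccr2 on chromosome 9 from 124101950 to 124113557, both on the plus strand. No exon of a member shared a base with an exon of another gene. The gene body of Ccl2 overlapped Gm17268 on the opposite strand, outside exons. These genes are related in sequence, and how the authors' counting placed reads that fit more than 1 of them is not given in the sources used here.

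Ccl8 and Ccl12 are neighbors in the first cluster. In the results below edgeR called Ccl8 in the subcutaneous tumors only and Ccl12 in no comparison. The 250 bases before each start, from the RefSeq promoter table of build GRCm38.p6, are shown because both hold a TATA motif at nearly the same distance from the start. The Ccl8 window is chr11:82114935-82115184 and the Ccl12 window chr11:82101595-82101844, both on the plus strand and written 5′ to 3′, with the motif TATAAA in capitals.
Ccl8: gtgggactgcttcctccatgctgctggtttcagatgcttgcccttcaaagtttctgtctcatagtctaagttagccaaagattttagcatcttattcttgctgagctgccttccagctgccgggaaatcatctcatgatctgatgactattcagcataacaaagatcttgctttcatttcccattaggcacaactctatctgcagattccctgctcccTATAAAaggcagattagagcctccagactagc
Ccl12: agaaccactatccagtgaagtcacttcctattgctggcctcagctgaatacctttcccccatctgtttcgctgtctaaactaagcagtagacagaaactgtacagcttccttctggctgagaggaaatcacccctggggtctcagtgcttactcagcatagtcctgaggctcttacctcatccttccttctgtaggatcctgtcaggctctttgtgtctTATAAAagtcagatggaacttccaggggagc
The TATAAA match began 32 bases before the start of Ccl8 and 31 bases before that of Ccl12. In all, 5 motifs were searched on both strands of the 250 bases before the RefSeq start, which the table holds for 5 of the 9 members (Ccl3, Ccl8, Ccl12, Ccl22 and Ccr2). The RefSeq starts of Ccl22 and Ccr2 lie inside the GENCODE gene bounds given above, so their windows run past the GENCODE start and were not printed. The motifs were TATAAA, the STAT-binding GAS motif TTCNNNGAA, the interferon-response element ISRE by its name, the AP-1 motif TGANTCA and the kappaB motif by its usual consensus. Of all 32851 promoters, TATAAA stood in 12.4%, the GAS motif in 7.02%, the ISRE in 2.98%, the AP-1 motif in 6.75% and the kappaB consensus in 7.25%. Apart from the TATAAA of Ccl8 and Ccl12, no motif was found in the 5 windows, which says only that these letters are not there.

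Each library held between 63729005 and 83782258 counts on genes. Levels are given as CPM, counts per 1000000 of edgeR's effective library size, apart for the subcutaneous and for the intratibial tumors, so levels are not compared between the 2 sites. A gene is called changed at an adjusted p under 0.05 over all genes tested in that fit. The IL-27+cabo tumor of mouse 20 at day 14 had the fewest counts, and the lowest correlation within its group was 0.908, against at least 0.946 in every other group. It carried the highest level of 6 members among all intratibial tumors. At EOS the control tumor of mouse 9 was far above that of mouse 13 in most members. Of 8 prostate epithelial markers, 2 or 3 had no counts in each tumor, Krt5 and Hoxb13 being at or near 0, and the summed level was 92.08 to 114.3 CPM in the day 14 controls.

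Levels of different genes can be set side by side only per length. Per kilobase of exon, Ccl2 was the most abundant member in the day 14 control tumors, at 53.3 ± 15.3 CPM per kb (SD, n = 3). Ccl7 followed at 22.1 ± 7.93, Ccl12 at 21.97 ± 11.5 and Ccl5 at 14.1 ± 2.65 CPM per kb. Ccl8 stood at 4.004 ± 1.28, Ccr2 at 3.47 ± 2.41, Ccl3 at 2.13 ± 0.324, Ccl4 at 1.39 ± 0.473 and Ccl22 at 1.17 ± 0.369 CPM per kb. Ccl7, Ccl12 and Ccl5 lay within their spread of one another, as did Ccl8 and Ccr2. By group mean Ccl2 led in all 8 intratibial groups and in the subcutaneous controls. Its lead lay within the spread of Ccl7 in some of them. With IL-27+cabo at day 14 it had 74.9 ± 25.7 against 67.7 ± 61.3 CPM per kb (SD, n = 3). In the subcutaneous controls it had 53.05 ± 19.1 against 44.5 ± 8.58 CPM per kb (SD, n = 2). In the subcutaneous tumors with IL-27 the first place was held by Ccl8, at 354 ± 316 CPM per kb (SD, n = 2), against 22.3 ± 8.14 CPM per kb in the controls.

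The first comparison asked how distant subcutaneous tumors differed when muscle carried the IL-27 plasmid. Ccl8 and Ccr2 were higher and Ccl5 was lower with IL-27, and these 3 of the 9 members passed the test. Of all 19360 genes tested, 20.04% were called in either direction, 682 higher and 3198 lower, so lower calls were far more common. Ccl8, the ligand of CCR8, stood at 8.44 and 14.3 CPM in the control tumors and at 66.7 and 295 CPM with IL-27. Its log2 fold change was 3.99 (SE 0.75, edgeR adjusted p = 0.011), a 15.9-fold difference with a 95% interval of 2.22 to 5.76 on the log2 scale. Both IL-27 tumors lay above both controls, yet replicate 2 held several times the level of replicate 1. In RNA of a whole tumor, a change in the number of cells of a type and a change in RNA per cell cannot be told apart, here and below.

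Ccr2, the monocyte receptor, was at 30.3 and 77.5 CPM without and 224 and 277 CPM with IL-27, a log2 fold change of 2.22 (SE 0.50, edgeR adjusted p = 0.0221). Ccl5, an inflammatory ligand made by T cells, NK cells and macrophages, fell from 12.6 and 5.30 CPM to 2.04 and 1.91 CPM, with a log2 fold change of -2.18 (SE 0.56, edgeR adjusted p = 0.0366). The IL-27 tumors were alike in Ccl5 and the controls were not. Among the ligands of CCR2, Ccl7 had 40.5 and 30.8 CPM in controls and 48.7 and 83.6 CPM with IL-27. Ccl2 had 75.7 and 45.03 CPM against 42.4 and 55.6 CPM. Ccl12 had 30.1 and 15.1 CPM against 16.8 and 34.5 CPM. Only Ccl7 of these ligands was higher in both IL-27 tumors than in both controls, and none of the 3 passed the test.

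Ccl22 was at 10.7 and 10.1 CPM in controls and 11.7 and 25.3 CPM with IL-27. Ccl3 was at 2.57 and 1.18 CPM against 2.43 and 3.59 CPM. Ccl4 was at 1.10 and 0.408 CPM against 0.405 and 1.00 CPM, the lowest mean per length of the 9 genes in both groups. The 6 members not called ran from -0.30 (Ccl2) to 0.89 (Ccl7) on the log2 scale. The IL-27 tumors lay above the controls without overlap in 4 members (Ccl7, Ccl8, Ccl22 and Ccr2), as they did in 31.9% of all genes tested. An exact test of 2 tumors against 2 cannot go below p = 0.333.

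These calls depended on the fit. The longest transcript of Ccr2 had a GC content of 39.4% and that of Ccl5 52.8%, the lowest and the highest of the 9. With offsets for GC content and transcript length, fitted per library, Ccr2 had a log2 fold change of 0.96 (edgeR adjusted p = 0.103), Ccl5 -1.53 (edgeR adjusted p = 0.0776) and Ccl8 3.46 (edgeR adjusted p = 0.0315), so only Ccl8 stayed called. Ccl8 lost its call without control replicate 1 (edgeR adjusted p = 0.125) or 2 (edgeR adjusted p = 0.0545), and its log2 fold change was 2.54 without IL-27 replicate 2. Ccl5 lost its call without control replicate 1 (log2 fold change -1.42) or without IL-27 replicate 1 or 2 (edgeR adjusted p = 0.0547 and 0.0559). Ccr2 kept its call whichever tumor was left out.

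Other cell markers moved in the same comparison. The summed level of 12 skeletal muscle genes was 3.318 to 13.53 CPM in controls and 383.3 to 1031 CPM with IL-27, and 11 of 12 were called higher, with Ckm, Mb and Myh1 at 0 in at least 1 control. Of the monocyte and macrophage markers 5 of 14 were called lower and none higher, with a summed level of 2458 to 3690 CPM in controls and 2742 to 4364 CPM with IL-27 and none at 0 in any tumor. T and NK cell markers summed to 21.47 to 22.2 CPM and 46.62 to 65.8 CPM, with 4 of 11 called higher and 1 lower. Of 8 neutrophil and marrow granule genes, 6 were tested and 5 of those called higher, with a summed level of 0.8775 to 2.012 CPM in controls and 37.8 to 39.43 CPM with IL-27. Fibroblast genes (2 of 5) and erythroid genes (2 of 4) were called higher as well. The part of these markers in the chemokine changes was not tested. Of 25 other CC family genes 21 were tested, and 2 were called higher and 1 lower. Ccr1, a chemokine receptor of myeloid cells, rose by 1.40 (SE 0.31, edgeR adjusted p = 0.0209) on the log2 scale. Ccl21a, a ligand of CCR7 with near-identical copies in the genome, fell, with a log2 fold change of -6.07 (SE 1.34, edgeR adjusted p = 0.0207), which is uncertain because its copies share reads.

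**Figure D1:**
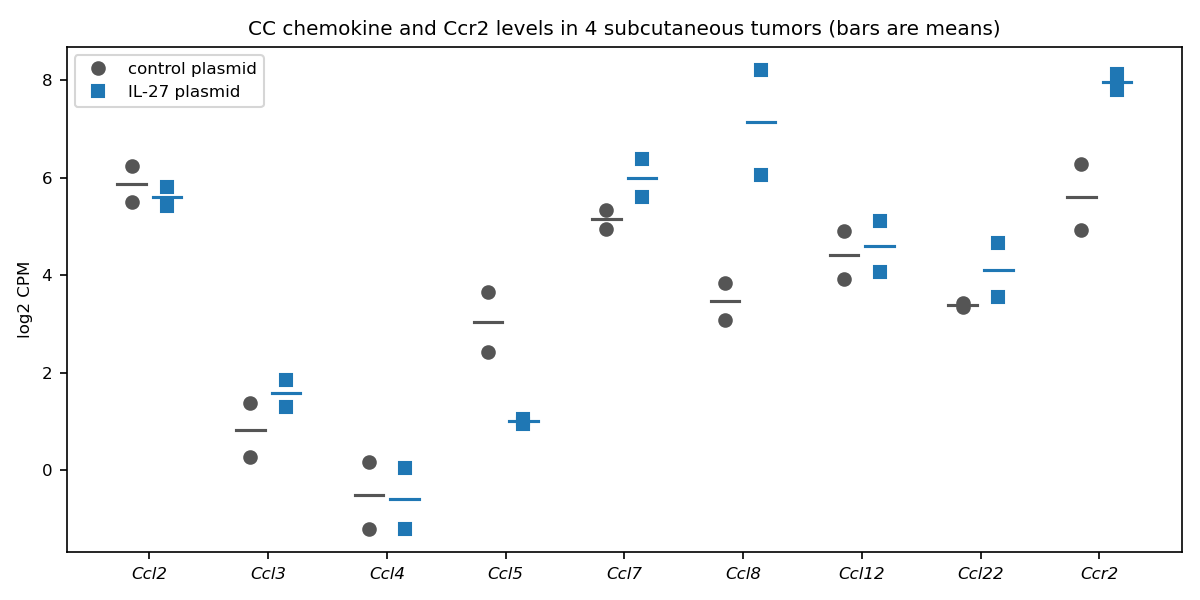
Levels of the 9 genes in the 4 subcutaneous tumors, with log2 CPM on the vertical axis, control plasmid as grey circles, IL-27 plasmid as blue squares and group means as bars. The IL-27 tumors sit above the controls in Ccl8 (log2 fold change 3.99) and Ccr2 (2.22) and below them in Ccl5 (-2.18).

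In the intratibial tumors of day 14 the comparisons asked what IL-27, cabo and both together changed while the drug was given. The 3 comparisons with control share the same control tumors. Tumors of each group are given in order of mouse number, which is 3, 5 and 7 for control, 4, 6 and 8 for IL-27, 21, 25 and 27 for cabo, and 20, 22 and 24 for IL-27+cabo.

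Among the ligands of CCR2, Ccl2 was at 76.4, 63.9 and 41.9 CPM in the control tumors of day 14, 32.7, 26.1 and 66.4 CPM with IL-27, 60.5, 74.1 and 79.2 CPM with cabo and 118, 76.2 and 61.6 CPM with IL-27+cabo. Ccl7 was at 23.1, 19.3 and 10.7 CPM in the control tumors of day 14, 10.2, 6.90 and 18.96 CPM with IL-27, 22.1, 23.2 and 28.1 CPM with cabo and 111, 26.01 and 25.8 CPM with IL-27+cabo. Ccl12 was at 18.3, 11.1 and 5.98 CPM in the control tumors of day 14, 7.43, 1.69 and 12.4 CPM with IL-27, 10.4, 11.7 and 16.03 CPM with cabo and 46.8, 13.2 and 14.04 CPM with IL-27+cabo. In all 3 ligands the tumor of mouse 20, the first value with IL-27+cabo, was the highest of day 14, and the cabo tumors overlapped the controls. Ccr2 itself was at 41.5, 19.1 and 9.81 CPM in the control tumors of day 14, 6.12, 4.95 and 21.8 CPM with IL-27, 33.2, 63.6 and 51.5 CPM with cabo and 30.3, 50.9 and 42.9 CPM with IL-27+cabo. The receptor was lowest in the IL-27 tumors of mice 4 and 6, and mouse 20 did not stand out in it.

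Ccl3, Ccl4 and Ccl5 are the inflammatory ligands of the second cluster. Ccl5 was at 16.3, 11.3 and 12.9 CPM in the control tumors of day 14, 8.07, 5.11 and 12.98 CPM with IL-27, 24.7, 29.4 and 23.1 CPM with cabo and 96.6, 24.5 and 21.7 CPM with IL-27+cabo. All cabo and IL-27+cabo tumors lay above all control and IL-27 tumors in Ccl5, a split that was not tested. How many of all genes separate in this way was not counted. Ccl4 was at 1.22, 0.944 and 0.592 CPM in the control tumors of day 14, 0.805, 0 and 0.604 CPM with IL-27, 1.41, 1.23 and 1.31 CPM with cabo and 5.49, 0.609 and 0.929 CPM with IL-27+cabo. In Ccl4 the IL-27 tumor of mouse 6 had 0 counts, which allows up to 0.0464 CPM (3 counts), a limit that covers counting error only. Ccl3 was at 1.41, 1.59 and 1.90 CPM in the control tumors of day 14, 1.85, 0.480 and 1.93 CPM with IL-27, 1.82, 2.19 and 1.44 CPM with cabo and 3.37, 1.72 and 1.37 CPM with IL-27+cabo, and its groups overlapped throughout.

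Ccl8, the ligand of CCR8, was at 2.80, 1.63 and 1.71 CPM in the control tumors of day 14, 1.00, 0.511 and 3.32 CPM with IL-27, 7.94, 11.2 and 2.42 CPM with cabo and 23.8, 5.23 and 4.84 CPM with IL-27+cabo. Ccl22, the ligand of CCR4, was at 3.70, 2.07 and 2.42 CPM in the control tumors of day 14, 3.15, 2.69 and 4.23 CPM with IL-27, 6.23, 7.79 and 6.59 CPM with cabo and 7.45, 5.12 and 5.18 CPM with IL-27+cabo. In Ccl22 every tumor given cabo, with or without IL-27, lay above every tumor not given it. The lowest value with the drug was 5.12 CPM and the highest without was 4.23 CPM. This split of the tumors was not tested, and the share of all genes that separate in this way was not counted.

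With cabo against control, Ccl5 and Ccl22 were called higher, 2 of 9 members, while 1.89% of all 18627 genes tested were called in either direction. Ccl5 had a log2 fold change of 0.91 (SE 0.16, edgeR adjusted p = 0.0401), or 1.88-fold, and means of 25.7 ± 3.27 CPM with and 13.5 ± 2.55 CPM without cabo (SD, n = 3 each). Ccl22 had a log2 fold change of 1.31 (SE 0.25, edgeR adjusted p = 0.0453), or 2.48-fold. All 9 members had positive fold changes, from 0.09 (Ccl12) to 1.79 (Ccl8), with a median of 0.50 against -0.01 over all genes. Ccl8 had the largest and was not called (SE 0.51, edgeR adjusted p = 0.133), and its value in mouse 27, 2.42 CPM, lay within the range of the controls. Without overlap the cabo tumors lay above the controls in 3 members (Ccl4, Ccl5 and Ccl22), as in 14.9% of all genes tested.

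Both calls of the cabo comparison were lost in other fits. Leaving out mouse 21, 25 or 27 of the cabo group or mouse 5 or 7 of the control group ended both, with edgeR adjusted p between 0.0576 and 0.159, while leaving out mouse 3 kept both. Fitted together with all 8 intratibial groups, Ccl5 had 0.93 (edgeR adjusted p = 1) and Ccl22 1.33 (edgeR adjusted p = 0.618). With 3 tumors against 3 an exact test cannot go below p = 0.1.

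Markers of other cells moved with cabo as well. The summed level of the 12 skeletal muscle genes was 7.047 to 148.9 CPM in controls and 1210 to 1940 CPM with cabo, with 4 called higher. With the muscle score as a covariate, the log2 fold change was 1.55 for Ccl5 (edgeR adjusted p = 0.39) and 2.34 for Ccl22 (edgeR adjusted p = 0.389). The score, the mean log2 CPM of these genes, was -1.43 to 2.92 in controls and 5.86 to 6.49 with cabo. It separated the groups fully, so muscle and drug cannot be told apart in that fit. Monocyte and macrophage markers had a summed level of 961.1 to 2072 CPM in controls and 1711 to 2206 CPM with cabo, all 14 with positive fold changes and 1 called. T and NK cell markers summed to 69.42 to 77.45 CPM in controls and 17.21 to 50.88 CPM with cabo, and 4 of 11 were called lower. Endothelial markers summed to 158.6 to 261.8 CPM in controls and 131.9 to 145.6 CPM with cabo, with 2 of 6 called lower. Erythroid genes summed to 36.37 to 171.1 CPM and 10.04 to 20.74 CPM, and the 3 tested had a median log2 fold change of -2.40, none called. Fibroblast genes summed to 3754 to 4182 CPM in controls and 5863 to 6214 CPM with cabo, with 1 of 5 called higher. Osteoclast markers summed to 288.8 to 433.7 CPM and 205.1 to 314.1 CPM, with 1 of 8 called lower, and mast cell markers to 11.19 to 13.19 CPM and 5.13 to 6.094 CPM, with none of the 5 tested called. Their part in the chemokine levels was not tested. Of 21 other CC family genes tested, 3 were called. Ackr1, a decoy receptor of venules and red cells that binds many chemokines, rose by 3.20 (SE 0.35, edgeR adjusted p = 0.00718) on the log2 scale, and Ccr7, the lymph node homing receptor, by 1.26 (SE 0.21, edgeR adjusted p = 0.0329). Ccl21a fell, with a log2 fold change of -4.61 (SE 0.62, edgeR adjusted p = 0.0156) and the same doubt over its copies.

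With IL-27 alone no member was called against control, as no gene of 18519 was (0%). No member had an unadjusted p under 0.05 in edgeR, where 2.76% of all genes had, and DESeq2 called no member and 0.0108% of all genes. Fold changes were negative in 8 of 9 members, from -1.08 to 0.31 on the log2 scale, and every member overlapped between groups. The smallest p was that of Ccl5, at -0.62 (SE 0.33, edgeR adjusted p = 1) with a 95% interval of -1.39 to 0.15. The log2 fold change of Ccl5 was -1.02 without mouse 8. The lowest value of the range was that of Ccr2. Within the IL-27 group mouse 8 held the highest level of every member but Ccl4. It also had 2045 CPM of skeletal muscle genes, against 29.66 and 69.11 CPM in mice 4 and 6 and 7.047 to 148.9 CPM in controls. T and NK cell markers summed to 13.79 to 66.14 CPM against 69.42 to 77.45 CPM, all 11 with negative fold changes and none called, and the part of these markers was not tested.

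With IL-27+cabo against control, no member was called by edgeR at an adjusted p under 0.05, where 0.0640% of all genes were, although 4 had an unadjusted p under 0.05, as 6.20% of all genes had. DESeq2 called 1, Ccl8, and 2.58% of all genes. All 9 fold changes were positive, from 0.42 to 2.51, with a median of 1.14 against 0.05 over all genes. Ccl8 had the smallest p, with a log2 fold change of 2.51 (SE 0.72, edgeR adjusted p = 0.448). Without mouse 20 it was 1.28. The IL-27+cabo tumors lay above the controls without overlap in 4 members (Ccl5, Ccl7, Ccl8 and Ccl22), a state shared by 7.49% of all genes tested. The 12 skeletal muscle genes summed to 1549 to 4440 CPM with IL-27+cabo against 7.047 to 148.9 CPM in controls, none called and a median of 5.70 on the log2 scale. T and NK cell markers summed to 24.56 to 31.75 CPM against 69.42 to 77.45 CPM, with 1 of 11 called lower, and endothelial markers to 64.21 to 133.3 CPM against 158.6 to 261.8 CPM, with none of 6 called. Their part in the chemokine levels was not tested.

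IL-27+cabo and cabo alone overlapped in every member, and no member was called (0% of all genes). No member had an unadjusted p under 0.05, where 1.92% of all genes had, and DESeq2 called no member and 0.0268% of all genes. Ccl7 had the smallest p, with 1.21 (SE 0.63, edgeR adjusted p = 0.788) on the log2 scale, and 0.09 without mouse 20. Against IL-27 alone, the combination was higher without overlap in 6 members (Ccl5, Ccl7, Ccl8, Ccl12, Ccl22 and Ccr2), where 6.81% of all genes were. Monocyte and macrophage markers summed to 730 to 1657 CPM with IL-27 and 1795 to 2944 CPM with the combination, skeletal muscle genes to 29.66 to 2045 CPM and 1549 to 4440 CPM, and endothelial markers to 149.3 to 212.9 CPM and 64.21 to 133.3 CPM, none called, and their part was not tested. None was called (0% of all genes) at the adjusted threshold. An unadjusted p under 0.05 was found for 4 members and 4.85% of all genes, and DESeq2 called 1 member, Ccl5, and 0.899% of all genes. Ccl5 had the smallest p there too, with 2.44 (SE 0.69, edgeR adjusted p = 0.916), and 1.39 without mouse 20. Whether IL-27 changed the response to cabo was tested as an interaction. No member passed (0% of all genes), none had an unadjusted p under 0.05 (1.88% of all genes) and none was called by DESeq2 (0.0201% of all genes). The smallest p was that of Ccl7, with 1.73 (SE 0.81, edgeR adjusted p = 0.952) and 0.64 without mouse 20.

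**Figure D2:**
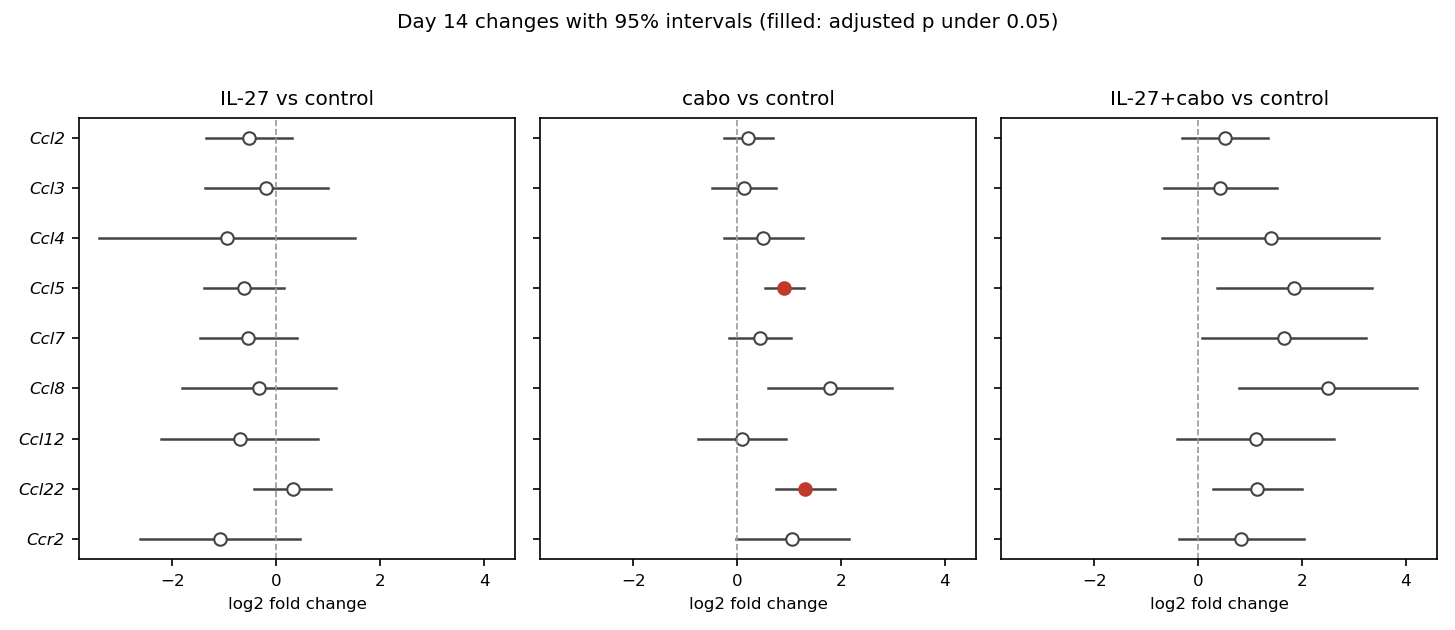
Log2 fold changes of the 9 genes at day 14 against control, with points for the edgeR estimate, lines for its 95% interval, filled red points for an adjusted p under 0.05 and open points for the rest. Only Ccl5 (0.91) and Ccl22 (1.31) with cabo are filled, and intervals with IL-27+cabo are wide.

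Tumors taken at EOS were then set against those of day 14 within each treatment. EOS values are given in order of mouse number, which is 9 and 13 for control, 10 and 12 for IL-27, 19 and 23 for cabo, and 16 and 28 for IL-27+cabo. Among the CCR2 ligands, Ccl2 was at 104 and 25.5 CPM in the control tumors, 20.03 and 27.5 CPM with IL-27, 31.1 and 32.1 CPM with cabo and 36.8 and 71.4 CPM with IL-27+cabo. Ccl7 was at 14.9 and 4.17 CPM in the control tumors, 4.15 and 5.64 CPM with IL-27, 6.16 and 6.77 CPM with cabo and 9.27 and 16.8 CPM with IL-27+cabo. Ccl12 was at 1.86 and 0.853 CPM in the control tumors, 1.67 and 4.18 CPM with IL-27, 3.03 and 5.61 CPM with cabo and 7.95 and 13.5 CPM with IL-27+cabo. The cabo pair was tight in Ccl2 and Ccl7, while the controls differed several-fold from each other. Ccr2 was at 10.6 and 3.45 CPM in the control tumors, 1.37 and 6.98 CPM with IL-27, 15.2 and 9.14 CPM with cabo and 19.996 and 69.8 CPM with IL-27+cabo, so mouse 28 with IL-27+cabo had the highest Ccr2 level of all 20 intratibial tumors.

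Ccl5 was at 15.7 and 4.97 CPM in the control tumors, 2.79 and 5.28 CPM with IL-27, 7.21 and 6.88 CPM with cabo and 6.61 and 18.3 CPM with IL-27+cabo. Ccl3 was at 7.01 and 0.592 CPM in the control tumors, 0.694 and 0.542 CPM with IL-27, 0.287 and 0.587 CPM with cabo and 0.651 and 0.323 CPM with IL-27+cabo, and the control tumor of mouse 9 held the highest level of all intratibial tumors. Ccl4 was at 1.90 and 0.165 CPM in the control tumors, 0.382 and 0.300 CPM with IL-27, 0.410 and 0.229 CPM with cabo and 0.922 and 0.282 CPM with IL-27+cabo. In Ccl4, too, control mouse 9 was above every other EOS tumor. Ccl8 was at 0.644 and 0 CPM in the control tumors, 0.680 and 0.257 CPM with IL-27, 1.84 and 1.56 CPM with cabo and 1.66 and 4.13 CPM with IL-27+cabo, where the control tumor of mouse 13 had 0 counts, which allows up to 0.0413 CPM (3 counts, counting error only). Ccl22 was at 3.46 and 0.550 CPM in the control tumors, 0.850 and 0.942 CPM with IL-27, 1.76 and 0.772 CPM with cabo and 1.72 and 1.68 CPM with IL-27+cabo. Its lowest value of all intratibial tumors was that of control mouse 13, and mouse 9 of the same group held more than any other EOS tumor.

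In the cabo group all 9 members were lower at EOS than at day 14 without overlap, as 20.3% of all genes tested were, and 5 of 9 were called, where 2.09% of all 19144 genes were called in either direction. Ccl5 had the smallest p, with a log2 fold change of -1.85 (SE 0.14, edgeR adjusted p = 0.00374), from a mean of 25.7 ± 3.27 CPM (SD, n = 3) to 7.05 ± 0.234 CPM (SD, n = 2). Ccl7 had -1.89 (SE 0.15, edgeR adjusted p = 0.00421) and Ccl2 -1.15 (SE 0.12, edgeR adjusted p = 0.0109). Ccl22 had the largest change, -2.41 (SE 0.37, edgeR adjusted p = 0.0312), or 0.188 times the day 14 level. Ccr2 had -1.996 (SE 0.33, edgeR adjusted p = 0.04). The 4 members not called, Ccl3, Ccl4, Ccl8 and Ccl12, had log2 fold changes from -2.05 to -1.53, with edgeR adjusted p between 0.0577 and 0.155. DESeq2 called all 9, and 9.14% of all genes in either direction. The median of the 9 was -1.996, against 0.01 over all genes. The day 14 cabo tumors of this comparison are the ones set against control above, so the values that were high there are the starting level here.

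Ccl5 and Ccl7 kept their calls whichever of the 5 tumors was left out. Ccl2 lost it without EOS mouse 23 (edgeR adjusted p = 0.0695). Ccl22 lost its call without mouse 21, 25, 27 or 23 (edgeR adjusted p = 0.108, 0.0701, 0.087 and 0.057), and Ccr2 without the same tumors (edgeR adjusted p = 0.0526, 0.0646, 0.101 and 0.17). With all 8 intratibial groups in one fit, which share one estimate of the spread, no member was called, and Ccl5 had -1.87 (edgeR adjusted p = 0.731).

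In the same comparison, monocyte and macrophage markers had a summed level of 1711 to 2206 CPM at day 14 and 1191 to 1205 CPM at EOS, none at 0, and 3 of 14 were called lower. Skeletal muscle genes summed to 1210 to 1940 CPM at day 14 and 122.6 to 949.2 CPM at EOS, and osteoclast markers to 205.1 to 314.1 CPM and 271.9 to 558.7 CPM, with none called in either list. T and NK cell markers summed to 17.21 to 50.88 CPM and 9.456 to 21.47 CPM, with 1 of 11 called lower and Cd3g and Cd8a at 0 in 1 EOS tumor or more. Endothelial markers summed to 131.9 to 145.6 CPM at day 14 and 233.3 to 281.7 CPM at EOS, with 3 of 6 called higher, and erythroid genes to 10.04 to 20.74 CPM and 56.54 to 60.18 CPM, with 2 of the 3 tested called higher. Fibroblast genes summed to 5863 to 6214 CPM and 3391 to 3498 CPM, with 2 of 5 called lower, and mast cell markers to 5.13 to 6.094 CPM and 11.86 to 15.31 CPM, with 1 of the 5 tested called higher. Their part in the fall of the chemokines was not tested. Of 22 other CC family genes tested, 6 were called, all lower. Ccr1 had -1.06 (SE 0.10, edgeR adjusted p = 0.00798) and Ccl6, a CCR1 ligand of myeloid cells, -1.27 (SE 0.14, edgeR adjusted p = 0.0109). Ccr1 and Ccr2 were both called lower in this group, as the ligands Ccl2, Ccl5 and Ccl7 were.

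In the control group 0.104% of all genes were called between day 14 and EOS, and no member was by edgeR. An unadjusted p under 0.05 was found for 2 members and 13.1% of all genes, and DESeq2 called Ccl12 alone of the members and 4.52% of all genes. Ccl12 had -3.12 (SE 0.58, edgeR adjusted p = 0.131), lower at EOS in both tumors than in all 3 of day 14. Ccl8 and Ccl12 were the 2 members lower without overlap, where 17.6% of all genes were. The other 7 members overlapped, and fold changes ran from -3.12 to 1.22. T and NK cell markers summed to 69.42 to 77.45 CPM at day 14 and 18.76 to 22.76 CPM at EOS, with 4 of 11 called lower and Cd8a and Gzma at 0 in 1 EOS tumor or more, and monocyte and macrophage markers to 961.1 to 2072 CPM and 739 to 1226 CPM, with none of 14 called and a median log2 fold change of -1.05. Osteoclast markers summed to 288.8 to 433.7 CPM at day 14 and 640 to 1596 CPM at EOS, and no gene was called higher in this group. The part of these markers was not tested. With IL-27, no gene was called (0%). There, 2 members and 5.05% of all genes had an unadjusted p under 0.05, DESeq2 called Ccl22 and 0.550% of all genes, and all 9 members had negative fold changes, from -1.90 to -0.46. Skeletal muscle genes summed there to 29.66 to 2045 CPM at day 14 and 9.081 to 17.23 CPM at EOS, T and NK cell markers to 13.79 to 66.14 CPM and 13.7 to 16.92 CPM, and osteoclast markers to 215 to 325.1 CPM and 702 to 791.1 CPM, none called, and their part was not tested. Ccl22 had the smallest p, with -1.90 (SE 0.38, edgeR adjusted p = 0.818). Ccl7 and Ccl22 did not overlap between times, against 11.6% of all genes.

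With IL-27+cabo, no gene was called between the times (0%). At an unadjusted p under 0.05 there were 3 members and 3.83% of all genes, and DESeq2 called Ccl22 and 1.68% of all genes. Its log2 fold change was -1.83 (SE 0.44, edgeR adjusted p = 0.621). Ccl3, Ccl5, Ccl7, Ccl8 and Ccl22, 5 of 9, were lower at EOS without overlap, where 10.8% of all genes were. No marker gene was called either. Skeletal muscle genes summed to 1549 to 4440 CPM at day 14 and 113.9 to 233.9 CPM at EOS, endothelial markers to 64.21 to 133.3 CPM and 236.4 to 329.5 CPM, and osteoclast markers to 202.7 to 290.5 CPM and 606.5 to 1069 CPM, and their part was not tested. Ccr2, named here after its values were seen, was the 1 member with a positive estimate, 0.09 (SE 0.55) on the log2 scale, a 95% interval of -1.26 to 1.44 and means of 41.4 ± 10.4 CPM at day 14 and 44.9 ± 35.2 CPM at EOS (SD, n = 3 and 2). Estimates were negative in all 4 treatments for 5 members, Ccl5, Ccl7, Ccl8, Ccl12 and Ccl22.

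**Figure D3:**
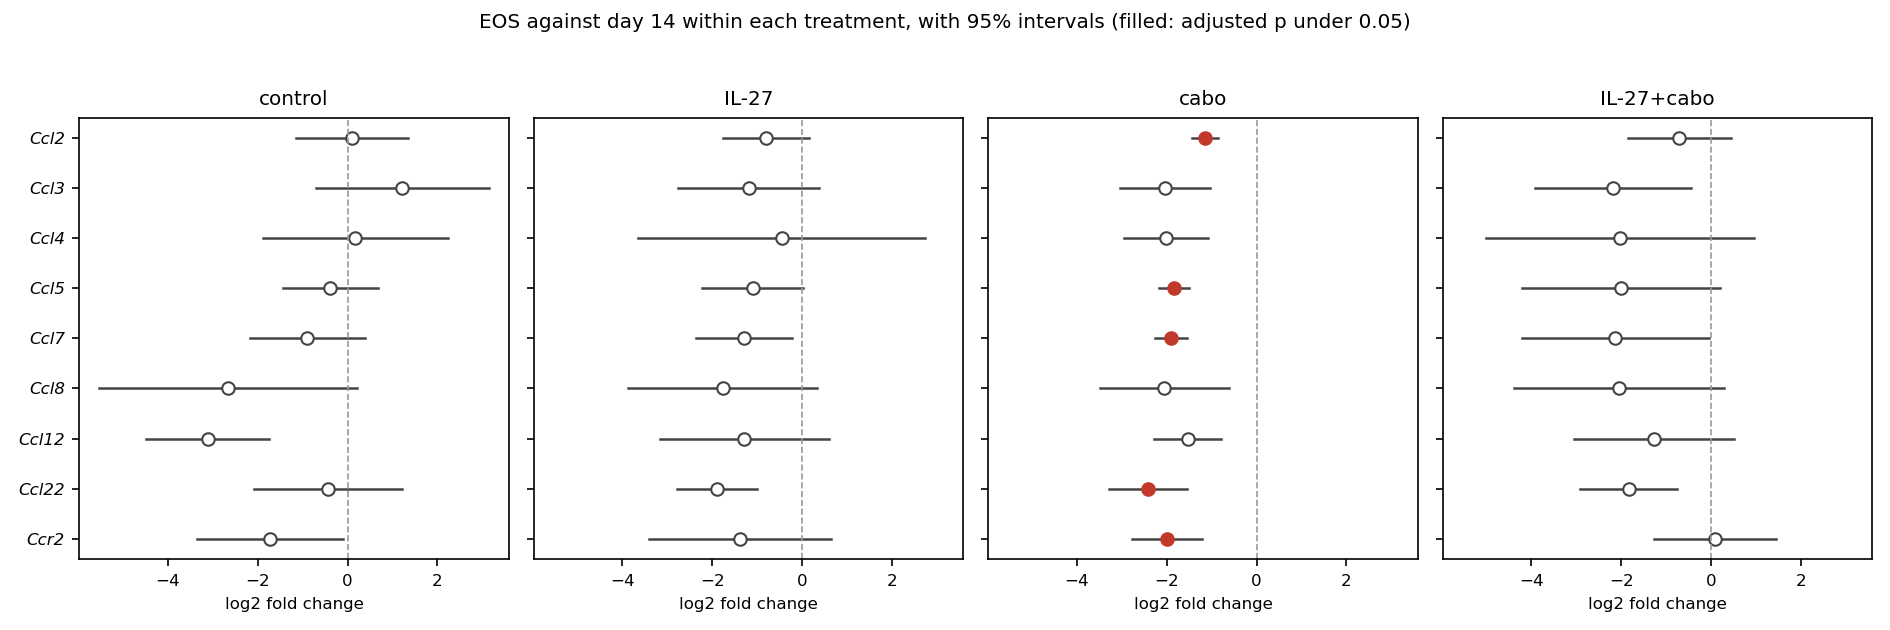
Log2 fold changes of the 9 genes at EOS against day 14 in 4 panels by treatment, with points for the edgeR estimate, lines for its 95% interval and filled red points for an adjusted p under 0.05. In the cabo panel all 9 points lie below 0, from -2.41 to -1.15, and 5 are filled.

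The EOS groups were also set against the EOS controls, which these 3 comparisons share. No gene was called by edgeR with IL-27 (0%), with cabo (0%) or with IL-27+cabo (0%). An unadjusted p under 0.05 was found with IL-27 for 2 members and 3.25% of all genes, with cabo for 2 members and 8.90%, and with IL-27+cabo for 4 members and 14.2%. DESeq2 called no member with IL-27 (0.115% of all genes) or cabo (1.35%) and 2 members, Ccl3 and Ccl12, with IL-27+cabo (4.63%). Ccl3 had -2.97 on the log2 scale in that comparison, with overlapping groups and with control mouse 13 lying within the range of the IL-27+cabo tumors and mouse 9 above it. With IL-27 the smallest p was that of Ccl3, at -2.63 (SE 1.02, edgeR adjusted p = 1), and without control mouse 9 the value was 0.06, of the opposite sign. With cabo it was again Ccl3, at -3.13 (SE 1.05, edgeR adjusted p = 0.491), and -0.43 without mouse 9. With IL-27+cabo Ccl12 came first, at 2.96 (SE 0.61, edgeR adjusted p = 0.178), with means of 10.7 ± 3.92 CPM against 1.36 ± 0.712 CPM (SD, n = 2 each) and 3.64 without mouse 9. Ccl8, Ccl12 and Ccr2 were higher with IL-27+cabo than in the controls without overlap, where 21.6% of all genes were. With cabo alone Ccl8 and Ccl12 were higher than in the same controls without overlap, where 21.8% of all genes were, and Ccl3 was lower without overlap, where 21.3% of all genes were. Skeletal muscle genes summed to 6.87 to 12.83 CPM in the EOS controls, 122.6 to 949.2 CPM with cabo and 113.9 to 233.9 CPM with IL-27+cabo, with Mb, Tnnc2 and Pvalb at 0 in 1 control or more. Monocyte and macrophage markers summed to 739 to 1226 CPM, 1191 to 1205 CPM and 1146 to 1839 CPM in the same order, none of these genes was called, and their part was not tested.

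A last set of tests asked whether a treatment's difference from control was another at EOS than at day 14. No member was called for IL-27 (0% of all genes), cabo (0.0788%) or IL-27+cabo (0.0788%). DESeq2 called no member either, and 0.0139%, 0.413% and 0.886% of all genes in the same order. An unadjusted p under 0.05 was found for 1, 2 and 1 members and for 1.93%, 4.11% and 9.14% of all genes. Ccl3 had the smallest p in all 3, with -2.42 (SE 1.08, edgeR adjusted p = 1), -3.27 (SE 1.09, edgeR adjusted p = 0.938) and -3.36 (SE 1.09, edgeR adjusted p = 0.429). Without control mouse 9 these values were 0.28, -0.57 and -0.68. So the fall of the 5 members in the cabo group is not shown to differ from the change in the controls.

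**Figure D4:**
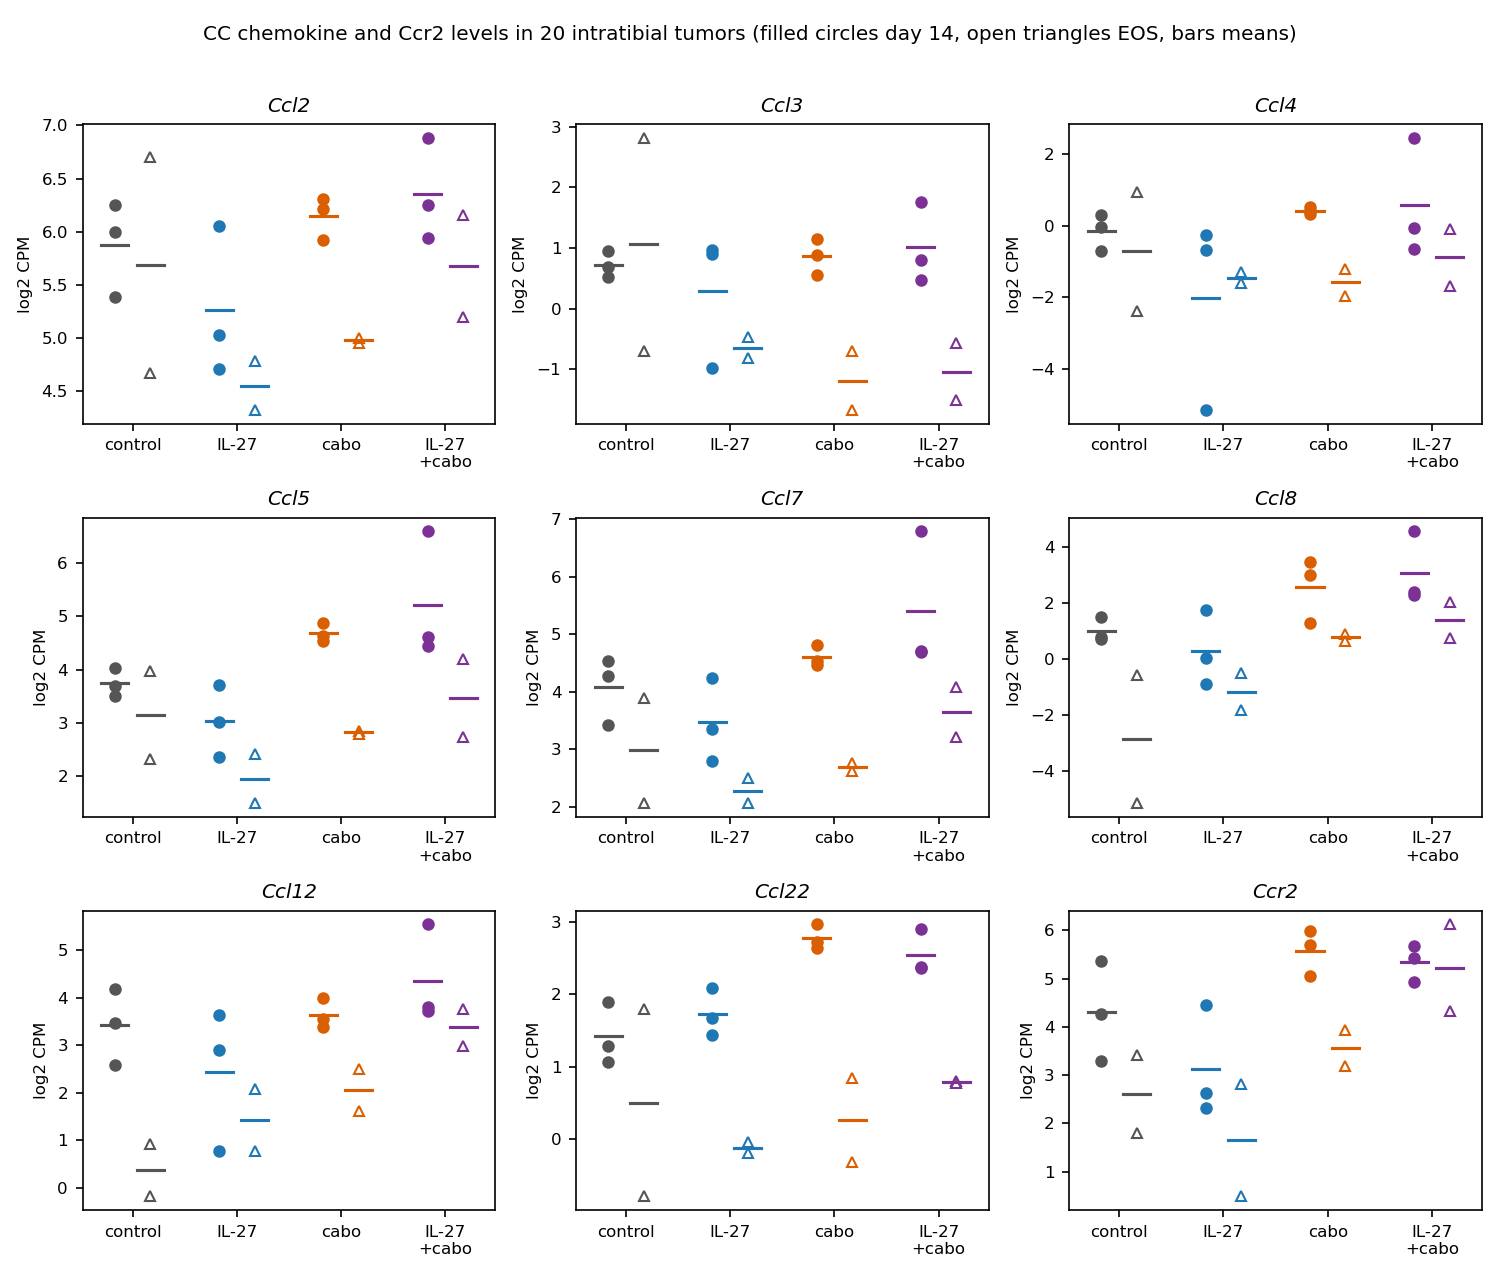
Levels of each gene in the 20 intratibial tumors, with log2 CPM on the vertical axis and the 4 treatments on the horizontal axis, filled circles for day 14, open triangles for EOS and bars for group means. The highest filled circle with IL-27+cabo in Ccl2, Ccl4, Ccl5, Ccl7, Ccl8 and Ccl12 is mouse 20, and the separated triangles of the control group are mouse 9 above mouse 13.

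Across the 20 intratibial tumors the members differed in how far they ranged. Ccl12 ran from 0.853 to 46.8 CPM, or 54.8-fold, and Ccr2 from 1.37 to 69.8 CPM, or 50.8-fold. Ccl2 had the narrowest range of the 7 members without a 0, 5.89-fold from 20.03 to 118 CPM. IL-27 tumors of EOS held the lowest group mean in Ccl2, Ccl5, Ccl7, Ccl22 and Ccr2. The controls of EOS held it in Ccl8 and Ccl12, and the cabo tumors of EOS in Ccl3 and Ccl4. In the order of the 8 group means most neighbors overlapped. The exceptions at day 14 were cabo above control in Ccl5, as in 14.9% of all genes tested, and IL-27+cabo above IL-27 in Ccl22, as in 6.81%. At EOS the exceptions were cabo above IL-27 in Ccl2, Ccl5 and Ccl7. That pair of groups was not tested, and the share of all genes that separate in it was not counted.

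Levels of the members rose and fell together to a varying degree. These correlations are over log2 CPM of the 20 intratibial tumors, which share the group means, the libraries and the depth, and they are given as a description. Ccl5 and Ccl7 had the highest Pearson's r, 0.96 (Spearman's rho 0.926), and 0.916 with group means removed. Ccl2 and Ccl7 had 0.907 and Ccl2 and Ccl5 0.903. Ccr2 had 0.798 with its ligand Ccl2, 0.768 with Ccl7 and 0.806 with Ccl12. The lowest of the 36 pairs was Ccl3 with Ccr2, at 0.251. Ccl8 had 0.851 with its neighbor Ccl12 and 0.544 with group means removed.

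**Figure D5:**
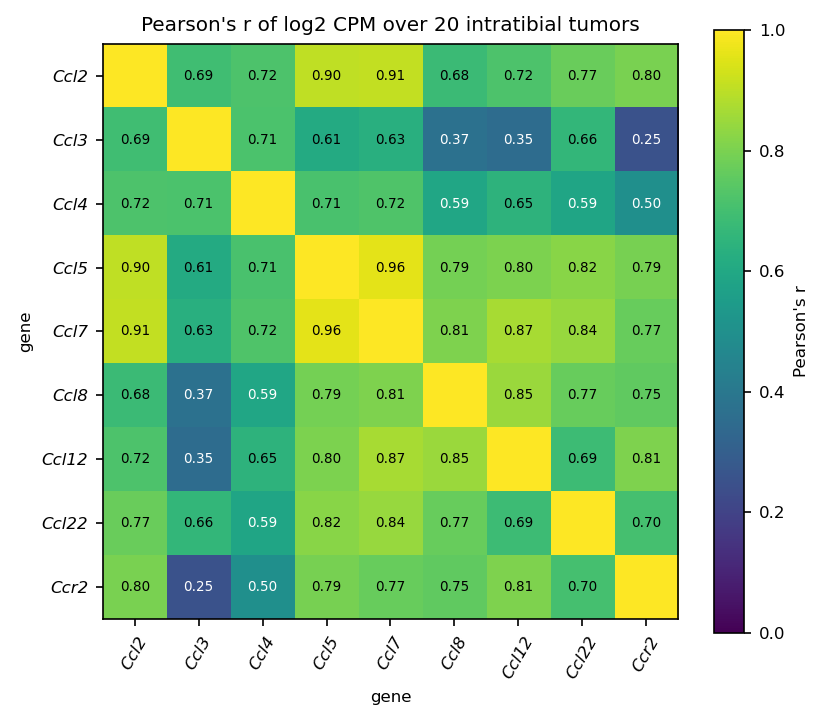
Pearson's r of log2 CPM over the 20 intratibial tumors for each pair of the 9 genes, with both axes listing the genes and color from 0 to 1. Ccl5 with Ccl7 is the brightest pair at 0.96 and Ccl3 with Ccr2 the darkest at 0.251.

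Outside the 9 genes, the genes most like each member over the same 20 tumors were found by Pearson's r. Ccr2 was most like the unnamed gene model Gm36161 (r = 0.968), then Fcgr1 (0.966), which encodes a high-affinity Fc receptor of monocytes and macrophages, and Ifi211 (0.964). For Ccl2 it was Il1b (0.924), the gene of interleukin-1 beta, with Psmb8 (0.891), an immunoproteasome subunit, and Cxcl10 (0.891), a chemokine of the CXC family. For Ccl5 the genes were H2-K1 (0.93), a class I antigen-presenting molecule, Cd74 (0.928), the class II invariant chain, and Psmb8 (0.922). Ccl7 was most like Pycard (0.926), the inflammasome adaptor, Ccl8 like Atoh8 (0.933) and Hsd11b1 (0.93), and Ccl12 like Ch25h (0.909). The lowest first matches were those of Ccl3, S100a9 (0.848), a calprotectin subunit of neutrophils and monocytes, and of Ccl4, Slpi (0.824). Ccl22 was most like Glrx (0.894) and the leukocyte tetraspanin Cd53 (0.886). With the 2 tumors farthest from the median of each member left out, r was 0.951 for Ccr2 with Fcgr1, 0.906 for Ccl2 with Il1b and 0.727 for Ccl3 with S100a9.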

How the data were processed

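RNA from 24 TC2Ras tumors was sequenced by the authors as poly(A)-selected paired-end libraries, trimmed with cutadapt, checked with FastQC and mapped with HISAT2. The values used here are the deposited raw counts per Ensembl gene, with all 24 columns assigned to tumors by their labels. The program and annotation behind the counts are not given in the sources used here. The submitters' processing notes name StringTie, DESeq2 and the build GRCh38, a human build, although the gene identifiers are mouse ones, and 55141 of 55401 were found in GENCODE M21 (GRCm38), which supplied gene symbols, positions and lengths. Low counts that were multiples of 4 made up 30.4% to 35.5% of each library's low values.

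Counts were filtered with filterByExpr, scaled by TMM and tested in edgeR 4.0.16 (R 4.3.3) by the quasi-likelihood F test, two-sided, with Benjamini-Hochberg adjustment over all genes of a fit and a threshold of 0.05. Log2 CPM used a prior count of 2, and an SE is the log2 fold change divided by the square root of F. Each day 14 comparison and each comparison of EOS with day 14 used its own groups, the interaction used the 4 groups of day 14, the EOS treatments shared a fit, and differences between times used all 8 intratibial groups. Tests were checked on simulated counts. DESeq2 1.42.0, RLE size factors, no filter, counts divided by 4, GC and length offsets, a muscle covariate, a replicate block, all groups in one fit, and leaving out each tumor were tried as alternatives. P-values measure the spread between tumors. No value of the authors' own comparisons was used.

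All 9 genes are given in every tumor, and fold changes with errors for those called and for the smallest p of each comparison. At most 3 other CC family genes, those with the smallest p, and at most 3 most alike genes were named. Some genes that this rule would name are not reported here. The members and lists were chosen with earlier results of these data known.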

Additional observations from a re-analysis of the deposited data

How the results depend on the processing

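The number of members called kept within 1.5 times its value in 92 of 106 counts from alternative fits and in 141 of 150 counts without 1 tumor. The 150 counts came from 94 fits. Most were 0 in a comparison where no member was called, so this tally says little about the calls. In the comparisons with a call, the number moved further in 1 of 4 counts without 1 tumor (subcutaneous), 5 of 6 (cabo at day 14) and 3 of 5 (EOS against day 14 with cabo). In the subcutaneous comparison it was 1 (Ccl8) in place of 3 with GC and length offsets, 1 with these offsets and the replicate block together, and 1 to 2 without 1 tumor, with the 1 reached without control replicate 1. The replicate block alone left 3. The labels share replicate numbers there, but deviations of same-numbered tumors had r = 0.0313 over 19360 genes, so the numbers do not pair the tumors. With cabo at day 14 the count was 0 in place of 2 with no low count filter, with the muscle covariate and with all 8 intratibial groups in one fit, and 0 to 2 without 1 tumor. For EOS against day 14 with cabo, where 5 were called, DESeq2 called 9 (and 9.14% of all genes), no filter gave 3, all 8 groups in one fit gave 0, and leaving out 1 tumor gave 2 to 5. Where edgeR called 0, DESeq2 called 1 with IL-27+cabo against control, 1 against IL-27, 1 each for EOS against day 14 in control, IL-27 and IL-27+cabo, and 2 with IL-27+cabo against control at EOS. The cause of these differences between settings was not tested. The log2 fold change of Ccl3 with IL-27 at EOS ran from -3.52 without control mouse 13 to 0.0604 without control mouse 9, and its change of the IL-27 difference from day 14 to EOS ran from -3.29 to 0.28 without the same tumors. Of 151 member fold changes under the other alternatives none turned sign, 18 lost the call and 6 gained it. Groups of 2 or 3 tumors limit all of these tests. Ccl3, Ccl4, Ccl8 and Ccl22 had levels under 1 CPM in several tumors, and 2 values were 0. Ccl12 had 1 such level.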
